A study of Mus musculus with 27 samples.

Results

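The genes described are 8 chemokines that draw neutrophils, monocytes or lymphocytes into tissue: Cxcl1, Cxcl2, Cxcl5, Ccl2, Ccl7, Ccl20, Cx3cl1 and Cxcl16. They were chosen by symbol, and all 8 of them were among the 19392 genes listed and among the 18188 genes tested. RNA-Seq was performed on the left kidneys of 27 wild-type C57BL/6 mice, 3 at each of 9 ischemia times. The left renal pedicle was clamped for 16, 18, 20, 22, 24, 26, 28 or 30 min, and the sham mice had 0 min of clamping. In the protocol the right kidney was removed and the left clamped for the time of the group, and 0 min is among these times. Read in this way, the sham mice also lost the right kidney, and the 0 min kidneys are not those of untouched animals. The paper does not state the removal for the sham mice by name. All kidneys were taken after 24 h of reperfusion, and neither the age nor the sex of the mice is given in the sources used here. Kidney tissue was sequenced in bulk as total RNA, and a change in a chemokine message cannot be assigned to a cell type. More cells of a type and more RNA per cell cannot be told apart.

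Chemokines are small secreted proteins that form gradients and guide leukocytes through G protein-coupled receptors. The CXC chemokines Cxcl1, Cxcl2 and Cxcl5 act on Cxcr2, the main chemokine receptor of neutrophils. Ccl2 and Ccl7 act on Ccr2, the receptor that brings inflammatory monocytes out of the bone marrow, and Ccl7 also acts on Ccr1 and Ccr3. Ccl20 is the ligand of Ccr6, which is carried by some lymphocytes and dendritic cells. Cx3cl1 (fractalkine) and Cxcl16 differ from the rest in being made as membrane-anchored proteins, shed by the proteases Adam10 and Adam17, and they act on Cx3cr1 and Cxcr6. In the injured kidney, tubular epithelium, endothelium and resident macrophages are all known sources of chemokines.

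The 8 genes lie on 4 chromosomes (GRCm38.p6). Cxcl1 lies at chr5:90891245-90893121, and Cxcl2 at chr5:90903899-90905938 is 10.8 kb further along the plus strand. Cxcl5 is in the same gene cluster at chr5:90759298-90761625, with 129.6 kb between it and Cxcl1. Ccl2 at chr11:82035577-82037452 and Ccl7 at chr11:82045712-82047525 are 8.3 kb apart. Ccl20 lies at chr1:83116766-83119167 and Cx3cl1 at chr8:94772180-94782427, both on the plus strand. Cxcl16, at chr11:70454389-70459984, is the only member on the minus strand. The longest coding transcripts run from 801 nt in Ccl7 to 3315 nt in Cx3cl1. Stretches of 50 bases shared with another gene made up 5.84% of those in the transcripts of Cxcl2, all shared with Cxcl3, so the assignment of reads between these paralogs is the least certain. For Cxcl5 the share was 0.693%, and it was 0 for the other 6 genes.

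RefSeq promoter sequences (GRCm38.p6) were at hand for 4 of the members, Cxcl1, Cxcl2, Ccl20 and Cx3cl1. Promoters of Cxcl5, Ccl2, Ccl7 and Cxcl16 are not shown. NF-kB is the transcription factor that many inflammatory stimuli use to switch on chemokine genes. The 250 bases before each start were searched on both strands for the letters of its motif, GGNNNTTCC, and for those of the AP-1 motif, TGANTCA. The motifs do not overlap in these windows. The NF-kB letters occurred in the promoters of all 4 genes and in 15.7% of the 32851 promoters in the table. The AP-1 letters occurred in 6.75% of all promoters and in 0 of the 4. The stretches with the matches are shown because these genes are described together in what follows. They are read 5′ to 3′ on the plus strand, which is the coding strand of all 4 genes, and capitals mark the matched letters.
Cxcl1, chr5:90891146-90891193: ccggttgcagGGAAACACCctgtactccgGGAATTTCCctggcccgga
Cxcl2, chr5:90903793-90903840: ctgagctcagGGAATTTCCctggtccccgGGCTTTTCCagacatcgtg
Ccl20, chr1:83116676-83116704: aatcaatgggGGAAAACCCcgggtgagaa
Cx3cl1, chr8:94772099-94772127: cgcagctacaGGCTCTTCCtctcccctcc
Cxcl1 and Cxcl2 each held 2 matches, and one match of each gene was the same 9 letters, GGAATTTCC, from 70 to 62 bases before the start in Cxcl1 and from 96 to 88 in Cxcl2. Ccl20 and Cx3cl1 held 1 match each. The first match of Cxcl1 and that of Ccl20 lie on the minus strand. A match is a likeness in letters, and binding was not measured.

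The deposited values are FPKM, fragments scaled to transcript length and to the mapped fragments of a kidney, which allow levels of different genes to be set side by side. Their depth is unknown, so precision is taken from the spread of the 3 mice at each time. For the tests, log2(FPKM + 1) was quantile normalized and fitted in limma over all 27 kidneys, and a gene was called where the absolute log2 fold change was above 1 and the Benjamini-Hochberg adjusted p-value under 0.05. Log2 fold changes below are on this log2(FPKM + 1) scale, which understates the change of low genes. Single values and means are in FPKM. The third 16 min kidney stood apart. Over all tested genes its root mean square distance from the mean of the 18 to 26 min kidneys was 0.289 on the log2 scale. That of the other 17 kidneys of 16 to 26 min was 0.113 to 0.206, but those of 18 to 26 min are themselves part of this mean. The third 16 min kidney was the nearest of the 18 to the sham mean, at 0.335, yet it lay nearer to the mean of 18 to 26 min. It also had the lowest value of the 3 kidneys of 16 min for 8 of 8 members. The tests of the 8 members at 16 min are therefore given with and without this kidney. Levels, shares and listed genes at 16 min, and means over 16 to 26 min of listed genes, include it. Since it was the lowest of the 3 in all 8 members, leaving it out raises their 16 min means. Calls gained in that way are no separate support for an increase.

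At 0 min the membrane-anchored pair made up nearly all of the message of these genes. Cxcl16 took 57.2% and Cx3cl1 37.8% of the summed FPKM of the 8 members (means of 3 kidneys), and Cxcl1 took 2.81%. After ischemia Cxcl1 joined them as a large component, with a mean share of 16.0% after 16 min, 24.6% after 20 min, 29.8% with 28 min of clamping and 23.4% with 30 min. The share of Ccl2 rose from 1.53% at 0 min to 7.51% at 20 min and was 4.74% at 30 min. Cxcl2, Cxcl5, Ccl7 and Ccl20 stayed below 4% each at every time. The sum over the 8 genes was 54.1 to 73.8 FPKM in the 0 min kidneys and 138 to 179 FPKM in the 28 and 30 min kidneys, which did not overlap. The third 16 min kidney, with 72.2 FPKM, lay within the sham range.

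**Figure D1:**
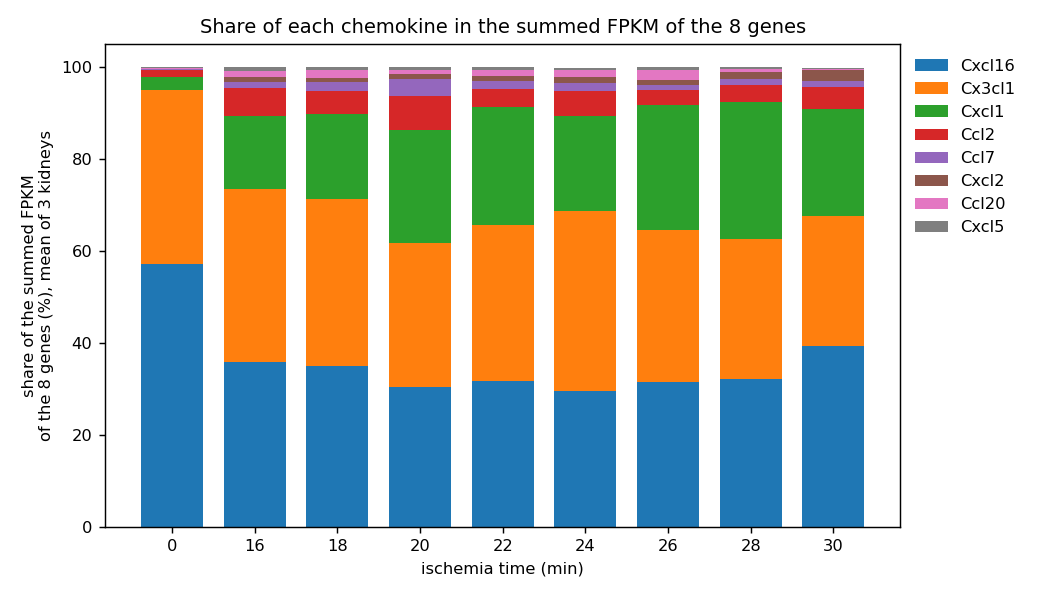
Share of each of the 8 chemokine genes in their summed FPKM (y axis, percent, mean of 3 kidneys) at each ischemia time (x axis, minutes, drawn as equally spaced categories). Cxcl16 and Cx3cl1 fill most of the bar at 0 min, and the share of Cxcl1 goes from 2.81% at 0 min to 29.8% at 28 min.

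The comparison with sham kidneys asks from which ischemia time each chemokine was raised. At 16 min 3 of 8 members were called (Cxcl1, Ccl2 and Ccl7), against 2.25% of all tested genes. After 18 min there were 4, against 3.06% of all genes, and after 20 min 4, against 2.51%. The 22 min kidneys gave 5 members (3.29% of all genes), those of 24 min 6 (3.12%) and those of 26 min 5 (3.77%). The longest times gave 5 members at 28 min, against 8.48% of all genes, and 4 at 30 min, against 10.7%. For the mean of the 6 times from 16 to 26 min, 5 members were called, against 2.96% of all genes. Every one of these calls was an increase. The median log2 fold change of the 8 members was 1.01 at 16 min, 1.40 at 24 min and 0.99 at 30 min, while that of all tested genes was between -0.01 and 0.00 at each time. Without the third 16 min kidney, 6 members were called at 16 min, with Cxcl2, Cxcl5 and Ccl20 added, against 3.42% of all genes. Without quantile normalization the members' calls at 16 min remained 3, and with FPKM rescaled to a constant sum there were 6, against 3.16% of all genes. When only the 16 and 0 min kidneys were fitted, 0 of 8 were called by limma at 16 min and 4 had an unadjusted p under 0.05. That fit, with the fewest kidneys, called 8 of all 18188 genes (0.044%).

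Cxcl1, the most abundant of the inducible neutrophil attractants here, had the largest log2 fold changes of the 8 members at all 8 ischemia times on the log2(FPKM + 1) scale. In ratios of mean FPKM to sham, Cxcl2 was above Cxcl1 at 16 min (14.3 against 10.8), 24 min (17.6 against 15.1) and 30 min (33.8 against 18.2). Such ratios were not taken for Ccl7 and Ccl20, which were listed at 0 in at least 1 sham kidney. From very low sham means, Ccl7 went from 0.16 to 5.07 FPKM at 20 min and Ccl20 from 0.08 to 3.47 FPKM at 26 min. Cxcl1 is thus not ranked against these 2 genes in FPKM ratio. The values of Cxcl1 were 0.83, 1.48 and 3.60 FPKM at 0 min and 16.3, 41.2 and 6.06 FPKM at 16 min. They were 48.7, 47.6 and 57.3 FPKM at 28 min and 50.7, 36.1 and 20.6 FPKM at 30 min. No kidney from 16 to 30 min fell within the sham range. The log2 fold change against 0 min was 2.54 ± 0.58 (SE, n = 3 against 3, limma adjusted p = 0.005) at 16 min and 4.11 ± 0.58 (adjusted p = 8.3e-06) at 28 min, and Cxcl1 was called at every time. Without the third 16 min kidney the log2 fold change at 16 min was 3.17 (adjusted p = 0.00051). On the FPKM scale the mean at 28 min was 26.0 times the sham mean, 51.2 ± 5.29 (SD, n = 3) against 1.97 ± 1.45 FPKM.

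The 18 kidneys of 16 to 26 min ranged from 6.06 to 89.7 FPKM of Cxcl1, with a median of 28.4. The lowest of these was the third kidney of 16 min and the highest the third of 26 min, and the numbers do not pair mice across times. In the order of mean levels, every pair of neighbouring times from 16 min upward overlapped. The 28 min kidneys, at 47.6 FPKM or more, lay above every kidney of 16, 18 and 24 min. At 30 min the mean was 35.8 FPKM, below that at 28 min, with a log2 fold change of -0.56 (95% interval -1.78 to 0.66).

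Cxcl2 acts on the same neutrophil receptor as Cxcl1. It had 0.12, 0.06 and 0.12 FPKM at 0 min and a median of 1.56 FPKM over the 16 to 26 min kidneys (range 0.41 to 3.02). It reached 2.91, 2.14 and 2.10 FPKM at 28 min and 3.04, 2.62 and 4.49 FPKM at 30 min. Its highest mean was thus at 30 min, with kidneys that overlapped those of 28 min, while the highest mean of Cxcl1 was at 28 min. This difference between the genes was not tested. The log2 fold change against 0 min was 1.20 ± 0.28 (SE, adjusted p = 0.0039) at 20 min and 1.95 ± 0.28 (adjusted p = 5.7e-06) at 30 min, and Cxcl2 was called at each time from 20 to 30 min. At 16 and 18 min it missed the fold threshold, with log2 fold changes of 0.96 (adjusted p = 0.019) and 0.92 (adjusted p = 0.017), although no kidney of these times overlapped the sham range. It passed at 16 min without the third kidney (1.26, adjusted p = 0.0023) or without the first (1.08, adjusted p = 0.029), and at 18 min without the third (1.09, adjusted p = 0.014).

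From 26 to 30 min Cxcl2 differed by 0.72 on the log2 scale (95% interval 0.15 to 1.3, adjusted p = 0.045), below the fold threshold, and the 3 kidneys of each time did not overlap. The ratio of Cxcl1 to Cxcl2 in FPKM was 19.2 to 35.3 at 26 min, 16.7 to 27.3 at 28 min and 4.59 to 16.7 at 30 min. The 30 min kidneys all lay below those of 26 min in this ratio, and they met those of 28 min at its lower end. This difference in ratio was not tested. Cxcl3, which shares stretches of sequence with Cxcl2, was listed at 0 in all sham kidneys. Its mean was 0.24 ± 0.08 FPKM (SD, n = 3) at 28 min and 0.90 ± 0.22 at 30 min. How far reads of Cxcl3 bear on the Cxcl2 values was not tested.

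Cxcl5, the remaining Cxcr2 ligand among the 8 members, stayed low. It had 0.04, 0.08 and 0.22 FPKM at 0 min, 1.58, 1.42 and 0.18 FPKM at 16 min, and 0.52, 0.57 and 0.29 FPKM at 30 min. The third 16 min kidney lay within the sham range, and all other ischemic kidneys lay above it. With all kidneys Cxcl5 was called at no time, since its log2 fold changes were between 0.37 and 0.76, with an SE of 0.24. Without the third 16 min kidney it was called at 16 min (1.10, adjusted p = 0.00057). The 95% interval at 30 min, -0.12 to 0.87, held 0, and that at 16 min, 0.27 to 1.25, held the threshold of 1. With a pseudocount of 0.1 FPKM in place of 1, which compresses low values less, Cxcl5 was called at all 8 times, with a log2 fold change of 2.02 (adjusted p = 0.014) at 16 min and 1.34 (adjusted p = 0.041) at 30 min.

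**Figure D2:**
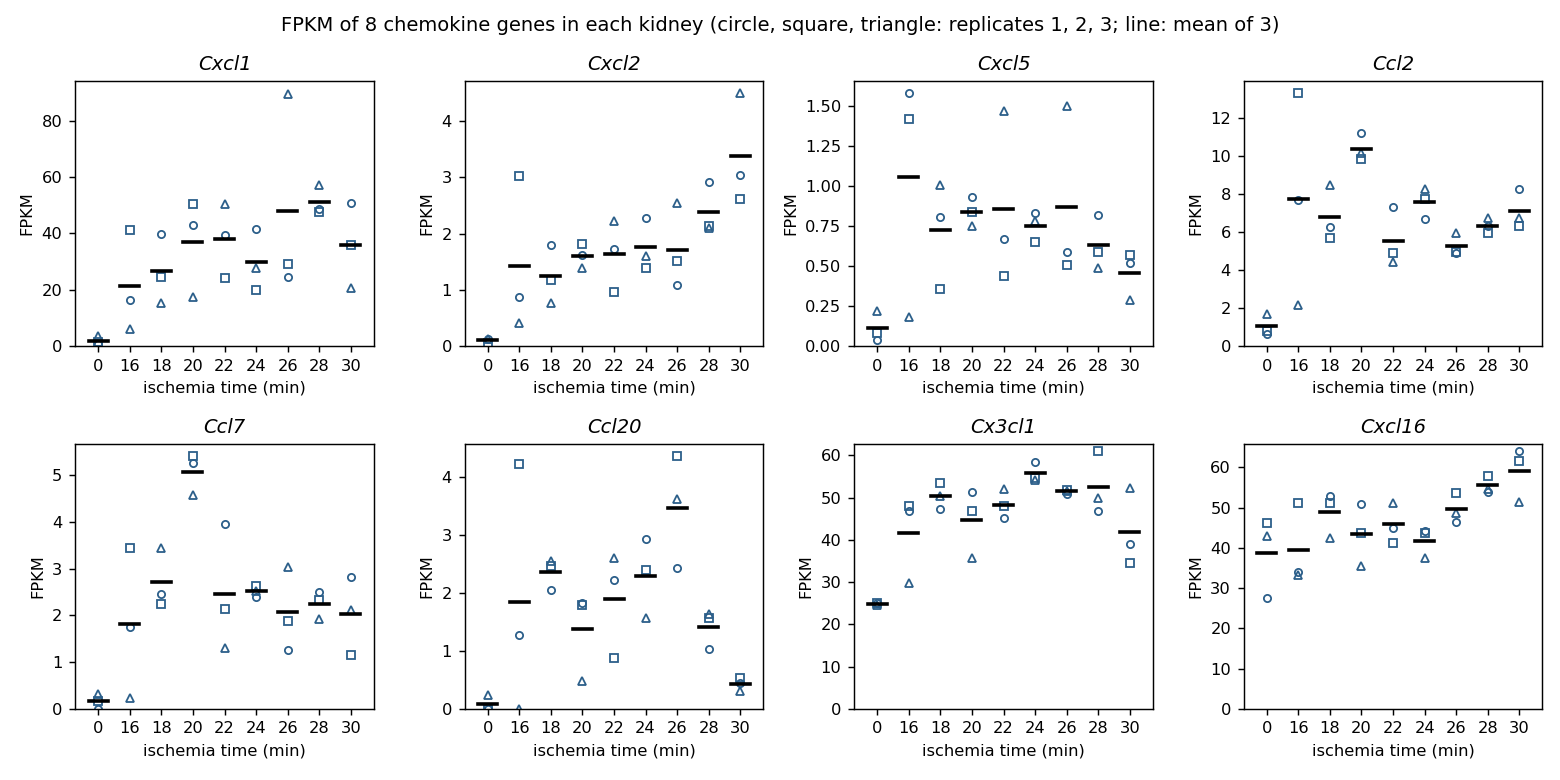
FPKM of each of the 8 chemokines (1 panel per gene, y axis from 0 and scaled per gene) in each of the 27 kidneys by ischemia time (x axis, minutes, equally spaced categories), with symbols for replicates 1 to 3 and a line at the mean. Cxcl1 is near the axis at 0 min and at 48.7, 47.6 and 57.3 FPKM at 28 min, the means of Ccl2 and Ccl7 are highest at 20 min, and Ccl20 falls from 26 to 30 min.

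The monocyte attractants Ccl2 and Ccl7 were called at all 8 ischemia times. Ccl2 had 0.66, 0.80 and 1.68 FPKM at 0 min, 7.71, 13.3 and 2.15 FPKM at 16 min, and 11.2, 9.87 and 10.2 FPKM at 20 min. At 30 min it had 8.30, 6.32 and 6.75 FPKM. All ischemic kidneys were above the sham range, the third 16 min kidney included. The log2 fold change against 0 min was 1.74 ± 0.33 (SE, adjusted p = 0.0012) at 16 min, 2.39 ± 0.33 (adjusted p = 7.5e-05) at 20 min and 1.87 ± 0.33 (adjusted p = 6.8e-05) at 30 min, and at 16 min it was 2.33 (adjusted p = 9e-07) without the third kidney. Ccl2 had its highest mean at 20 min. Its 3 kidneys there lay above those of every other time except 16 min, whose kidneys lay on both sides of them.

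Ccl7 had 0, 0.16 and 0.32 FPKM at 0 min, where 1 kidney was listed at 0. It had 1.76, 3.43 and 0.24 FPKM at 16 min, 5.25, 5.40 and 4.57 FPKM at 20 min, and 2.81, 1.14 and 2.11 FPKM at 30 min. Apart from the third 16 min kidney, all ischemic kidneys were above the sham range. The fitted log2 fold change, which depends on the pseudocount for a gene listed at 0, was 2.38 ± 0.33 (SE, adjusted p = 7.9e-05) at 20 min and 1.33 ± 0.33 (adjusted p = 0.0019) at 30 min. Ccl7 too was highest at 20 min, and its kidneys there did not overlap those of 18 min, the next highest time. At 16 min the value of 1.05 (adjusted p = 0.03) lay near the threshold and was lost without the first 16 min kidney (0.98, adjusted p = 0.098), the second 16 min kidney (0.65, adjusted p = 0.22), the first sham kidney (0.94, adjusted p = 0.10) or the second sham kidney (1.07, adjusted p = 0.078). Without the third 16 min kidney it was 1.53 (adjusted p = 0.00057).

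Ccl2 and Ccl7 had nearly the same course. Over the 9 mean log2 levels, each gene centred on its own mean, their root mean square difference was 0.22, and Ccl7 was the nearest of 12928 genes to Ccl2. The ratio of Ccl2 to Ccl7 had its lowest median at 20 min (2.14, range 1.83 to 2.23). That range overlapped those of 22 min (1.85 to 3.39) and 26 min (1.96 to 3.9). At 30 min the ratio was 2.95 to 5.54. This likeness is a description over 9 times whose kidneys are the same for all genes.

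Ccl20 was the only member called at 30 against 26 min, where it was lower. At 30 against 28 min its log2 fold change was -0.77 (limma adjusted p = 0.22), and no member was called. Cxcl1 (-0.56), Cx3cl1 (-0.29), Cxcl5 (-0.18) and Ccl7 (-0.14) were lower there too, while Cxcl2, Ccl2 and Cxcl16 were higher. The values of Ccl20 were 0, 0 and 0.24 FPKM at 0 min, 1.28, 4.23 and 0 FPKM at 16 min, and 2.06, 2.47 and 2.55 FPKM at 18 min. They were 2.43, 4.36 and 3.62 FPKM at 26 min, 1.03, 1.57 and 1.64 FPKM at 28 min, and 0.44, 0.53 and 0.31 FPKM at 30 min. The 3 kidneys of 26, of 28 and of 30 min form a descending order with no overlap between these times, and those of 30 min still lay above all 3 sham kidneys. Ccl20 was called against 0 min at 18, 22, 24, 26 and 28 min, with the largest fitted log2 fold change at 26 min, 1.99 ± 0.39 (SE, adjusted p = 0.00071). The call at 22 min was lost without the first or the third kidney of that time (1.23 and 1.16, adjusted p = 0.05 and 0.067). That at 28 min was lost without the third 28 min kidney (1.09, adjusted p = 0.055) or the second sham kidney (1.12, adjusted p = 0.05). At both 16 and 20 min the third kidney was the lowest of its time, and the call changed with it. At 16 min the fold change was 1.06 (adjusted p = 0.062), and 1.65 (adjusted p = 0.00097) without the third kidney, in which Ccl20 was listed at 0. At 20 min it was 1.04 (adjusted p = 0.059), with 1.83, 1.80 and 0.48 FPKM, and 1.34 (adjusted p = 0.027) without the third kidney of that time. At 30 min it was 0.40 (95% interval -0.41 to 1.21, adjusted p = 0.42).

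The comparisons among the longest times ask whether the chemokines changed across the step from 26 to 28 min and on to 30 min. Between 26 and 28 min limma called 0 of 8 members, against 1.5% of all genes, and 1 member, Ccl20, had an unadjusted p under 0.05 (log2 fold change -0.82, 95% interval -1.63 to -0.01, adjusted p = 0.16). Between 28 and 30 min 0 of 8 were called, against 1.05% of all genes, and 0 had an unadjusted p under 0.05. Between 26 and 30 min 1 of 8 was called, against 5.19% of all genes. That member was Ccl20, with a log2 fold change of -1.59 ± 0.39 (SE, adjusted p = 0.003). With a pseudocount of 0.01 FPKM the same difference was -2.94 and was not called (adjusted p = 0.13). The 95% intervals for 28 against 26 min were wide for Cxcl1 (-0.89 to 1.54) and narrower for Cx3cl1 (-0.32 to 0.34). A line fitted over the times from 16 to 26 min was called by limma for 0 members and for 0% of all genes, and 2 members, Ccl20 and Cx3cl1, had an unadjusted p under 0.05.

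**Figure D3:**
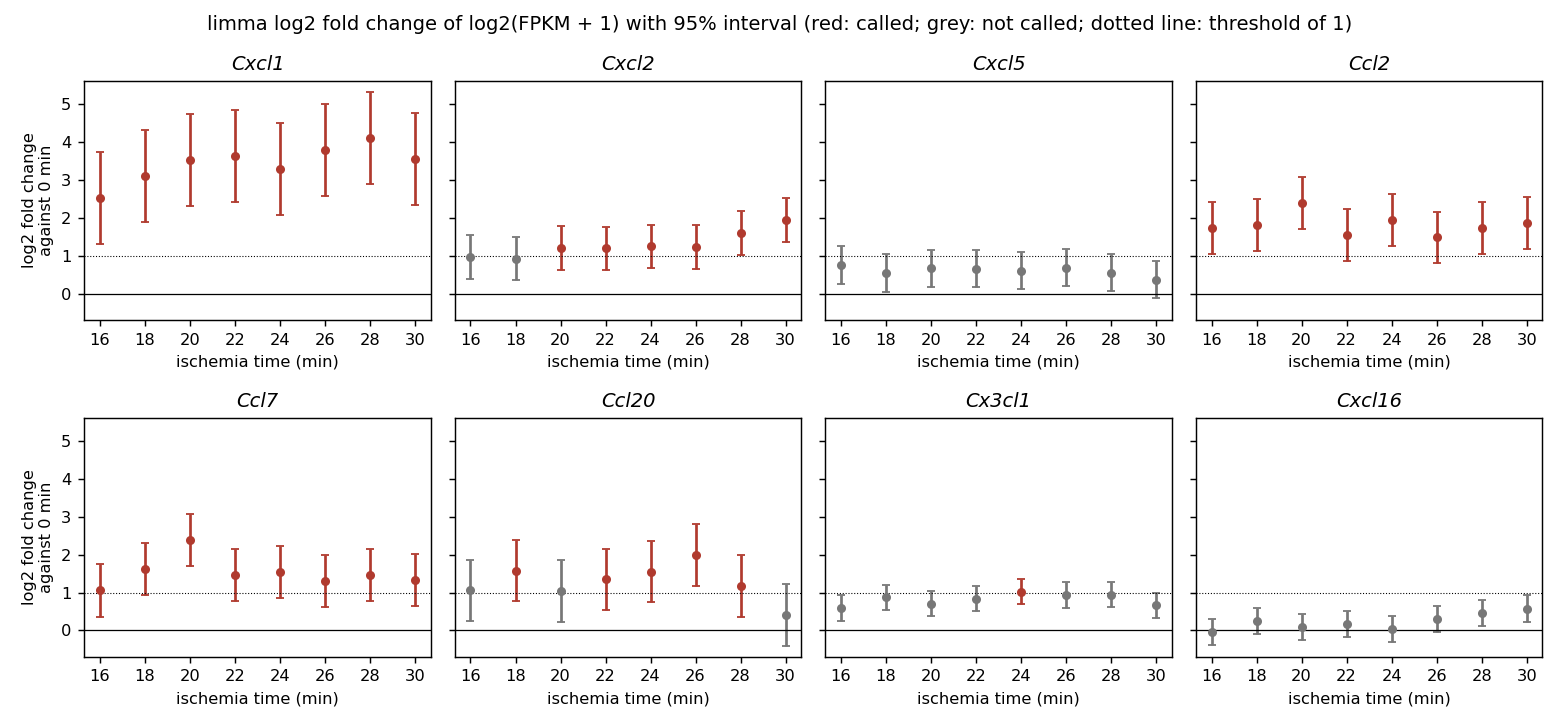
Log2 fold change against 0 min of each chemokine (y axis, log2(FPKM + 1) scale, limma, with 95% interval) at the 8 ischemia times (x axis, minutes). Red points are called and grey points are not, and Cxcl1, Ccl2 and Ccl7 are red at all 8 times, while Cxcl16 is red at none.

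Cx3cl1, the fractalkine gene, was already abundant in sham kidneys and tight among them, at 24.95, 25 and 24.66 FPKM. At 16 min it had 46.8, 48.1 and 29.8 FPKM, at 24 min 58.3, 54.6 and 54.1 FPKM, and at 30 min 38.9, 34.6 and 52.3 FPKM. Every ischemic kidney was above the sham range. The mean was 1.67 times the sham mean at 16 min, 2.24 times at 24 min and 1.69 times at 30 min. The log2 fold changes were between 0.59 and 1.03, with an SE of 0.16, and adjusted p-values were at most 0.014 at every time, but only the value at 24 min, 1.03 (adjusted p = 0.00012), passed the fold threshold. At 16 min it was 0.79 (adjusted p = 0.00068) without the third kidney. The value at 24 min was 0.98 without the first kidney of that time, and at 28 min, where it was 0.95, it passed without the first kidney (1.02). Without quantile normalization Cx3cl1 was also called at 26 min (1.02) and 28 min (1.04).

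Cxcl16, the other membrane-anchored chemokine and a scavenger receptor for oxidized lipid, had the smallest log2 fold change of the 8 members at each time from 16 to 28 min. At 30 min those of Cxcl5 and Ccl20 were smaller. It had 27.5, 46.2 and 42.8 FPKM at 0 min, a median of 44.6 FPKM (range 33.3 to 53.6) over the 16 to 26 min kidneys, 53.9, 57.8 and 54.7 FPKM at 28 min, and 64.0, 61.5 and 51.4 FPKM at 30 min. The kidneys of 28 and 30 min were all above the sham range, while those of 16 to 24 min overlapped it. Cxcl16 was never called. Its log2 fold change was -0.04 (95% interval -0.38 to 0.31) at 16 min, 0.05 (adjusted p = 0.89) there without the third kidney, and 0.58 ± 0.17 (SE, 95% interval 0.23 to 0.92, adjusted p = 0.006) at 30 min, 1.52 times the sham mean.

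Messages of the receptors, which sit on the responding leukocytes, were low in these tissues. For comparison in this and the lists below, 8.48% of all genes were called at 28 min and 10.7% at 30 min against 0 min. The share was 2.25% at 16 min and 2.96% for the mean of 16 to 26 min. Of the 8 receptors listed, 1 was called at 28 min and 0 at each of the other times against 0 min, where 2 or 3 had an unadjusted p under 0.05 in limma. That receptor was Ccr1, with a mean of 0.38 ± 0.14 FPKM (SD, n = 3) at 0 min and 1.93 ± 0.26 at 28 min (log2 fold change 1.04, adjusted p = 0.00022). Cxcr2 had 2.10 ± 0.32 FPKM at 0 min and 2.74 ± 0.23 at 30 min (0.16, adjusted p = 0.23). It was lower for the mean of 16 to 26 min than at 0 min (-0.24, adjusted p = 0.021) and higher at 28 than at 26 min (0.40, adjusted p = 0.0094), both short of the fold threshold. Ccr2 had 0.89 ± 0.35 FPKM at 0 min and 1.06 ± 0.54 at 30 min (-0.01, adjusted p = 0.99). After shorter ischemia its level was higher than in sham kidneys, though short of a call. The 16 min kidneys averaged 1.62 ± 0.63 FPKM, those of 26 min 1.69 ± 0.44 and those of 28 min 1.71 ± 0.30. The log2 fold change of Ccr2 was 0.36 for the mean of 16 to 26 min (adjusted p = 0.092). For 28 min it was 0.43 (adjusted p = 0.11).

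Cx3cr1 had 1.76 ± 0.30 FPKM at 0 min and 0.88 ± 0.36 at 30 min (log2 fold change -0.70, adjusted p = 0.00079), and Cxcr6 was at most 0.89 FPKM at 0 min and at most 0.03 at 30 min (-0.44, adjusted p = 0.011), both short of the fold threshold. Cxcr1, Ccr3 and Ccr6 did not exceed 0.07 FPKM in the kidneys of 0, 16, 26, 28 or 30 min. Of the proteases that shed Cx3cl1 and Cxcl16, Adam10 was 16.6 ± 0.24 FPKM at 0 min and 24.6 ± 1.98 at 30 min (0.45, adjusted p = 9.3e-05) and Adam17 8.36 ± 0.63 and 9.25 ± 0.75 (0.03, adjusted p = 0.79), and neither was called. The 3 scavenging receptors Ackr1, Ackr2 and Ackr4, which take up chemokines without signalling, were called at no time in limma, and at most 1 had an unadjusted p under 0.05.

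Marker genes of the leukocytes that these chemokines attract were followed in the same kidneys. The summed FPKM of 12 neutrophil markers was 3.16 to 10.5 at 0 min, 2.58 to 11.5 over 16 to 26 min, 13.2 to 16.7 at 28 min and 21.6 to 29.2 at 30 min. The sums of 16 to 26 min overlapped those of sham kidneys, at times when Cxcl1 was called, and those of 28 and 30 min lay above them. S100a8 and S100a9 made up most of the sum, with means of 4.81 and 6.17 FPKM at 28 min and 7.94 and 9.77 FPKM at 30 min. At 0 min these means were 2.36 and 2.83 FPKM. Of the 11 markers tested, 0 were called by limma for the mean of 16 to 26 min, against 2.96% of all genes, and 2 had an unadjusted p under 0.05. At 30 min 2 were called by limma, against 10.7% of all genes. They were S100a8 (log2 fold change 1.35, adjusted p = 0.0045) and S100a9 (1.39, adjusted p = 0.0012), the calprotectin subunits, which other cells can also make. At 30 min 6 of the 11 had an unadjusted p under 0.05, and the list's median log2 fold change was 0.51. From 0 to 30 min the means went from 0.70 to 2.63 FPKM for Csf3r, from 0.76 to 2.64 for Retnlg, from 0.02 to 0.59 for Mmp8 and from 0.157 to 0.68 for Mmp9, with log2 fold changes between 0.51 and 0.99 (adjusted p at most 0.012). The granule genes Camp, Mpo and Elane were listed at 0 in all 3 kidneys of 30 min, and the surface marker Ly6g had 0.38 ± 0.22 FPKM at 0 min and 0.23 ± 0.05 at 30 min. The part of these cells in the levels of the 8 chemokines was not tested.

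The summed FPKM of 12 monocyte and macrophage markers was 71.7 to 83.1 at 0 min, 76.8 to 160 over 16 to 26 min, 102 to 115 at 28 min and 104 to 180 at 30 min. The lowest of the ischemic kidneys was again the third of 16 min. The markers in this sum did not move together. From 0 to 26 min the mean FPKM went from 12.3 to 34.0 for Lyz2 and from 3.38 to 19.7 for Cd68. The 3 markers highest at 0 min did not rise: C1qb (19.7 and 15.9), C1qa (18.2 and 13.5) and Csf1r (15.8 and 8.09). For the mean of 16 to 26 min, 2 of the 12 were called by limma, against 2.96% of all genes. These were Cd68 (log2 fold change 2.26, adjusted p = 1.6e-07) and Lyz2 (1.33, adjusted p = 0.0027), both higher. At 30 min 5 were called higher and 2 lower, against 10.7% of all genes called in either direction. The largest increases were those of Cd68 (2.63, adjusted p = 7e-08), Chil3 (2.34, adjusted p = 3.5e-05) and Cd14 (2.01, adjusted p = 3.2e-05), and Itgam and Lyz2 rose too. Csf1r (-1.23, adjusted p = 1.1e-05) and Ly6c2 (-1.23, adjusted p = 0.00037), a marker of the inflammatory monocytes that carry Ccr2, fell. Of 7 lymphocyte markers 0 were called by limma at 28 or 30 min, where 3 had an unadjusted p under 0.05. None of these lists was tested as a set.

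**Figure D4:**
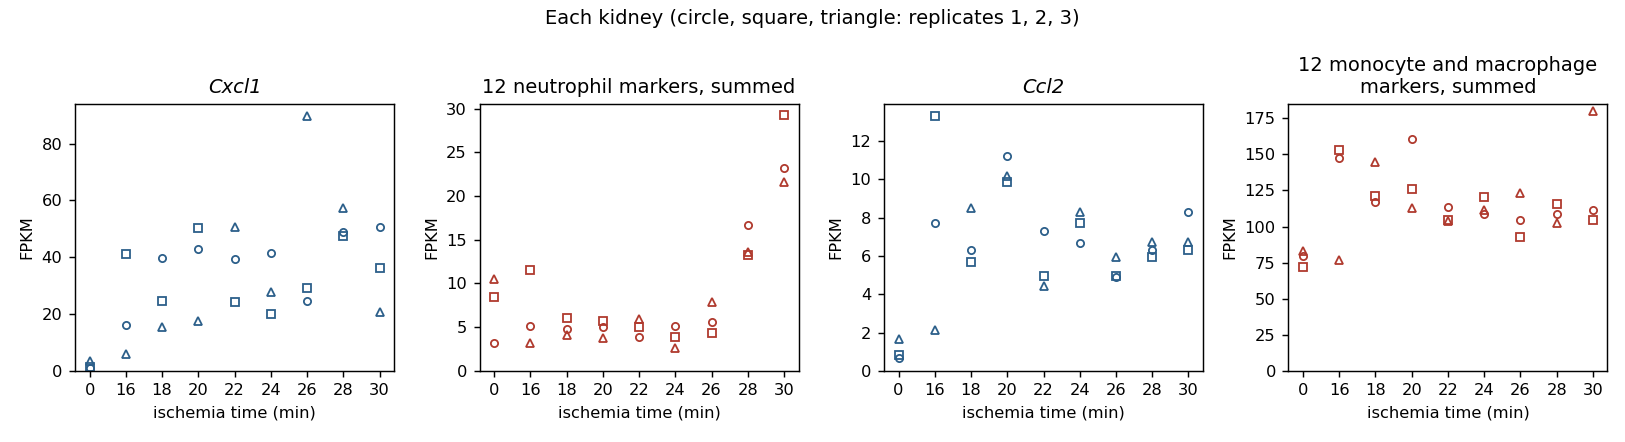
FPKM in each kidney (y axes from 0) of Cxcl1, the summed neutrophil markers, Ccl2 and the summed monocyte and macrophage markers by ischemia time (x axis, minutes, equally spaced categories), with symbols for replicates 1 to 3. Neutrophil markers, most of whose sum at 30 min is S100a8 and S100a9, are 21.6 to 29.2 FPKM at 30 min against 2.58 to 11.5 over 16 to 26 min. Cxcl1 is above the sham range from 16 min.

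Markers of the kidney's own cell types moved with ischemia time as well. Summed FPKM of 5 proximal tubule markers was 2610 to 2970 at 0 min, 1710 to 3110 over 16 to 26 min and 641 to 744 at 30 min. At 30 min 4 of the 5 were called, all lower, against 10.7% of all genes called in either direction. Of 5 loop, distal tubule and collecting duct markers 3 were lower at 28 and 3 at 30 min. Slc12a1 (log2 fold change -2.43, adjusted p = 0.00079) changed most at 30 min. The summed FPKM of these 5 was 2120 to 2340 at 0 min and 791 to 1110 at 28 min. At 30 min it was 800 to 2870 with a median of 825, so the highest kidney lay above the sham range. Of 5 fibroblast and pericyte markers, 2 or 3 were called higher at every ischemia time, as Cxcl1, Ccl2 and Ccl7 were. Their summed FPKM was 39.8 to 45.5 at 0 min, 80.1 to 157 over 16 to 26 min, 79 to 109 at 28 min and 74.7 to 248 at 30 min. Col1a1 had 3.81 ± 1.26 FPKM (SD, n = 3) at 0 min and 31.9 ± 13.1 at 16 min (2.60, adjusted p = 3.5e-05), and Acta2 9.64 ± 1.67 and 27.4 ± 5.17 (1.31, adjusted p = 0.019), while Dcn was lower at 30 min (-1.63, adjusted p = 8.1e-05). Of 3 podocyte and 5 endothelial markers 0 were called by limma at 30 min, where 1 and 4 had an unadjusted p under 0.05. Whether these shifts in composition bear on the chemokine levels was not tested.

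Other chemokine ligands did not share one direction. Of the 28 tested, 1 was called higher and 1 lower for the mean of 16 to 26 min, against 2.96% of all genes called in either direction. At 30 min 5 were higher and 5 lower, against 10.7% of all genes. Their median log2 fold change at 30 min was -0.07, against 0.00 for all genes. The largest changes at 30 min were Pf4 (2.71, adjusted p = 2e-07), the platelet factor, and 3 that fell, Cxcl12 (-2.41, adjusted p = 2.2e-06), Cxcl10 (-2.35, adjusted p = 0.0062) and Ccl12 (-2.05, adjusted p = 2e-04). Cxcl12, the constitutive ligand of Cxcr4, went from 62.4 ± 1.34 FPKM at 0 min to 12 ± 4.89 at 30 min. Ccl12, which like Ccl2 and Ccl7 acts on Ccr2, moved the other way from them at 30 min. Sham kidneys ranged widely in Cxcl10, from 3.70 to 79.6 FPKM.

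Among 13 tested cytokines and receptors that induce these chemokines, 1 was called by limma at 28 min, Tnfrsf1a (adjusted p = 1.1e-05), against 8.48% of all genes. For the mean of 16 to 26 min and at 30 min 0 were called by limma, against 2.96% and 10.7% of all genes. In these comparisons 5 and 7 had an unadjusted p under 0.05. Tnf was at most 0.73 FPKM and Il6 at most 1.3 FPKM in the kidneys of 0, 16, 26, 28 and 30 min. Of 11 NF-kB subunits and feedback genes, 1 was higher for the mean of 16 to 26 min (Bcl3, 1.18, adjusted p = 0.012), and 4 were higher at 28 min and 4 at 30 min. Those of 30 min were Relb (1.48, adjusted p = 3.1e-05), Nfkb2 (1.21, adjusted p = 0.00021), Nfkbiz (1.18, adjusted p = 0.0061) and Nfkbia (1.06, adjusted p = 3.2e-05), which codes for the inhibitor that NF-kB itself induces. At 16 min limma called 0 of the 11, 5 had an unadjusted p under 0.05, and their median log2 fold change was 0.22. Relb went from 2.56 ± 0.37 FPKM at 0 min to 5.89 ± 3.76 at 16 min. The 16 min kidneys ran from 2.39 to 9.86 FPKM, and the sham kidneys from 2.16 to 2.89.

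Of 5 RNA-binding proteins that act on chemokine messages, Zfp36 (tristetraprolin, which promotes the decay of AU-rich messages) rose, with log2 fold changes of 1.27 (adjusted p = 9.1e-06) for the mean of 16 to 26 min and 1.68 (adjusted p = 1.9e-06) at 30 min. The remaining 4 were not called at 30 min. Of 5 endothelial adhesion molecules for leukocytes, 1 was called at 28 min, Vcam1 (1.39, adjusted p = 0.036), and 0 at 30 min in limma, where 3 had an unadjusted p under 0.05. Of 4 myeloid growth factors, Il34 (2.38, adjusted p = 5.8e-08) and Csf1 (1.82, adjusted p = 9.2e-05), the ligands of Csf1r, were higher at 30 min.

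For each called member the 3 genes with the nearest course over the 9 times were found among 12928 genes. Nearest to Cxcl1 were Egr1, an immediate early transcription factor (root mean square difference 0.30 on the log2 scale), Timp1, an inhibitor of metalloproteinases (0.31), and Sprr1a (0.37). Nearest to Cxcl2 were Wfdc2 (0.07), Cd99 and B4galnt1 (both 0.11). Nearest to Ccl2, after Ccl7, were Lilr4b (0.23) and Emp3 (0.25), and nearest to Ccl7 were Lilrb4a (0.22), Ccl2 and Lilr4b (0.25), of which the Lilr genes encode leukocyte receptors. Nearest to Ccl20 were Oip5 (0.18), Aoc1, an enzyme that degrades polyamines and histamine, and Ncapg, a condensin subunit (both 0.19), and nearest to Cx3cl1 were Tinf2 (0.08), Stil and Alg3 (both 0.09). The distance grows with the size of a gene's own changes, so values for Cxcl1 and Cx3cl1 are not on equal terms. Among the members, the nearest pair was Cxcl5 and Cx3cl1 (0.19), followed by Ccl2 and Ccl7 (0.22), and the most distant was Cxcl1 and Cxcl16 (1.06). Cxcl1 and Cxcl2, neighbours on chromosome 5, differed by 0.76.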

How the data were processed

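Left kidneys of 27 C57BL/6 mice, 3 per ischemia time, were sequenced as total RNA on a DNBSEQ platform. The authors deposited FPKM per gene symbol and kidney, rounded to 2 decimals, which the paper calls RPKM. Bowtie2, RSEM and DESeq2, without versions, and GRCm38.p6 are named in the submitters' processing notes. RSEM shares multi-mapping reads between like genes, which bears on Cxcl2 and Cxcl3. No counts were used here, so the depth is unknown. The deposited values sum to 512453 to 554036 per kidney and are not quantile normalized.

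Kidneys were grouped by the ischemia time in the labels. log2(FPKM + 1) was quantile normalized and fitted in limma 3.58.1 (R 4.3.3) with 1 mean per time. The filter asked for a value above 0 FPKM in 3 or more kidneys and left 18188 genes. The p-values were adjusted over all tested genes by Benjamini-Hochberg. The steps were tested on simulated data. No batch is given in the labels. Replicate numbers do not pair the mice: deviations of the 108 same-numbered pairs of kidneys correlated with a median r of -0.01 (range -0.42 to 0.48), a description across genes. A paired or exact test of single values was not used, since 3 kidneys against 3 give an exact permutation p of at least 0.1.

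The members, the lists and the tests were chosen with earlier results of these data known. The genes named are all 8 members, the 3 nearest genes of each called member, and of each list the genes called at 30 min against 0 min, at most the 4 largest changes, and all receptors and proteases. List genes named at 28 min or at 16 to 26 min only (Ccr1 apart) were named after their values were seen. So were Itgam, Lyz2, Csf1r, C1qa, C1qb, Ly6c2, Ly6g, Csf3r, Retnlg, Mmp8, Mmp9, Cxcl3, Tnf, Il6 and the neutrophil genes listed at 0. Alternatives were pseudocounts of 0.1 and 0.01 FPKM, values without quantile normalization, a constant sum of FPKM per kidney (TPM), no filter, a filter of 1 FPKM or more in 3 or more kidneys (12929 genes), a fit of the compared times alone, a trended eBayes, the replicate number as a block, and each kidney left out in turn. Promoters came from RefSeq, and positions from the annotation of the same build. Figures were drawn with matplotlib 3.10.9 (Python 3.11.15).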

Additional observations from a re-analysis of the deposited data

How the results depend on the processing

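Of 1776 values of a member in a comparison under an alternative, 1675 kept their direction and their side of the thresholds, 46 passed them and 15 lost them, and no called value changed sign. In the other 40, which were called in neither fit, the sign differed. The number of members called at 16 min against 0 min, 3 in the report, was 5 with a pseudocount of 0.1 or 0.01 FPKM, 6 with FPKM rescaled to a constant sum and 0 where only the 16 and 0 min kidneys were fitted, an alternative with fewer samples. The constant sum was larger than the deposited sums. The added 1 therefore weighed less against low values in that fit, as it did with the smaller pseudocounts. The cause of these higher counts was not tested. The number called at 16 min ranged from 2 to 6 when 1 kidney was left out, and the 6 came without the third 16 min kidney. The number called at 30 min against 26 min was 0 with a pseudocount of 0.01 FPKM, since Ccl20 (-2.94, adjusted p = 0.13) was not called, and the cause was not tested.

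With 1 kidney left out, the members called numbered 4 to 5 at 18, 20 and 22 min, 5 to 6 at 24 min, 5 to 5 at 26 min, 4 to 6 at 28 min and 4 to 4 at 30 min. They were 5 to 5 for the mean of 16 to 26 min, 0 to 0 for the line and for the 28 min kidneys set against those of 26 or 30 min, and 1 to 1 for 30 against 26 min. A replicate block left all 13 counts as they were, for example 3 at 16 min and 4 at 30 min. The median of all genes moved by under 0.1 on the log2 scale under each scaling. Low FPKM of Cxcl2, Cxcl5, Ccl7 and Ccl20 limits their fold changes, which grow with a smaller pseudocount, and 3 mice per time limit all intervals.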
